A study of Caenorhabditis elegans with 8 samples.

Results

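The genes described here encode the heterotrimeric G proteins of Caenorhabditis elegans and the proteins with an RGS domain (regulator of G protein signalling) that act on them. Members were chosen by name alone, as every gene of the deposited count table whose name starts with gpa- or rgs- and a digit, together with goa-1, egl-30, gsa-1, odr-3, gpb-1, gpb-2, gpc-1, gpc-2, egl-10 and eat-16. This gave 40 of the 46748 genes in the table. They comprise 4 G alpha genes of classes shared with mammals (goa-1, egl-30, gsa-1 and gpa-12), 18 other G alpha genes, 2 G beta genes, 2 G gamma genes and 14 RGS genes.

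RNA came from untreated worms of strain OH10689, grown on plates with the bacterium E. coli NA22. The strain carries otIs355 [rab-3(prom1)::2xNLS-TagRFP] IV. A rab-3 promoter, active across the nervous system, drives nuclear red fluorescent protein in this strain, and fluorescent cells were collected by flow sorting as neurons. All groups share this genotype, and the stage of the worms is not given in the sources used here. Each of 4 RNA samples was divided in 2, with 1 library made by SoLo Ovation and the other by SMARTseq V4 with Nextera XT, giving 4 libraries per kit, and the comparison asks which genes each kit measures in the same RNA. As background, SMARTseq V4 primes cDNA from the poly(A) tail, whereas SoLo does not depend on the tail and removes ribosomal RNA sequences from the library.

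A heterotrimeric G protein couples a receptor in the membrane to enzymes and channels inside the cell. An activated receptor makes the alpha subunit exchange GDP for GTP, alpha and the beta-gamma pair part and each acts on its targets, and RGS proteins end the signal by speeding GTP hydrolysis. In worm motor neurons EGL-30 (the Gq alpha subunit) promotes transmitter release, GOA-1 (Go) opposes it and GSA-1 (Gs) acts through cyclic AMP. Most of the remaining G alpha genes are specific to nematodes and are known largely from chemosensory neurons.

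Library totals lay between 2354681 and 3454199 counts in SoLo and between 4510927 and 7099497 in SMARTseq. All levels below are CPM, the reads of a gene scaled to the size of its library and to TMM factors (which centre the bulk of genes). Fold changes are log2(SoLo/SMARTseq) ± SE from edgeR with n = 4 libraries per kit, positive towards SoLo. A gene was called when its adjusted p over all 11378 tested genes was under 0.05. RNA sample 1 stood apart from RNA samples 2 to 4 in both kits: between libraries of 1 kit, chi-square per degree of freedom was 25.1 to 85.8 for pairs with RNA sample 1 and 2.14 to 10.7 for the other pairs, where counting error alone gives about 1. Kit comparisons of members are therefore also given without RNA sample 1 where that changes a call. Whether separate cultures or sorts gave the 4 RNA samples is not stated, and p-values therefore measure only the spread between these samples, which may be technical. The 10 pan-neuronal markers summed to 17338 to 24486 CPM in SoLo and 26267 to 35089 CPM in SMARTseq. The 8 muscle markers reached 5970 to 7446 and 4322 to 5802 CPM, the 8 intestinal markers 279 to 459 and 114 to 170 CPM, the 6 hypodermal markers 122 to 165 and 297 to 1028 CPM, the 7 germline markers 311 to 521 and 222 to 490 CPM, and the 5 glial markers 13.1 to 19.8 and 30.4 to 52.5 CPM. No marker of these lists was without reads. The part of these other cells in the values below was not tested.

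**Figure D1:**
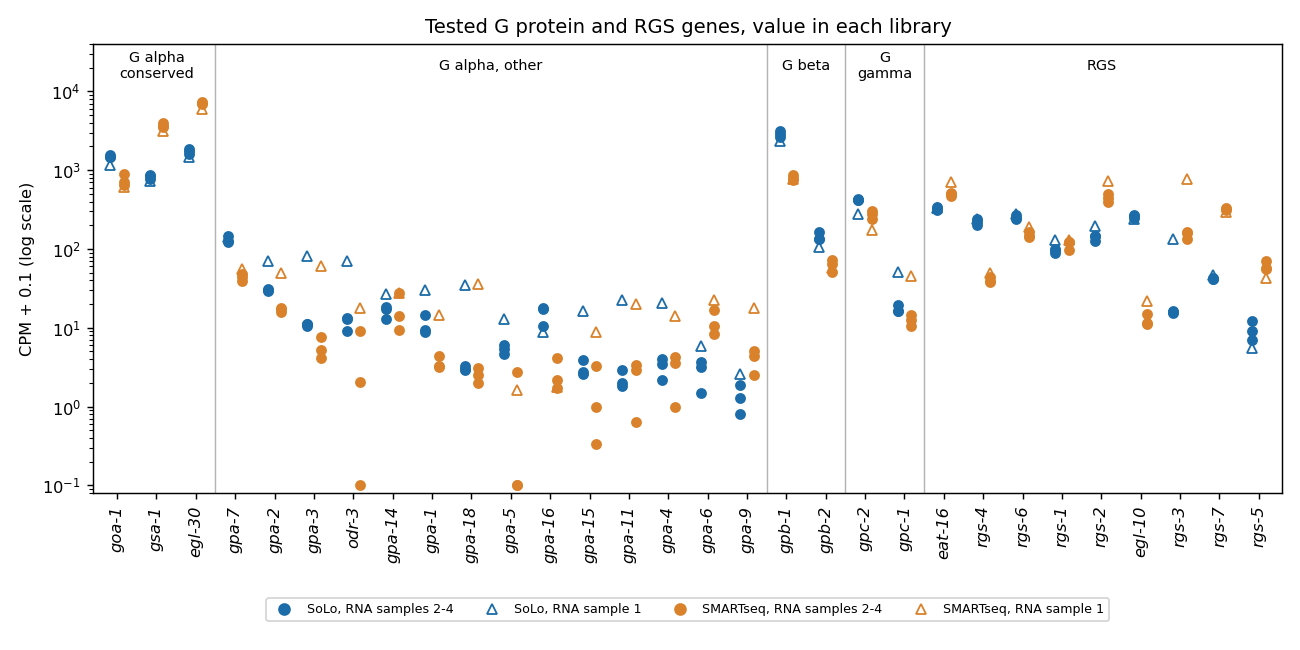
CPM + 0.1 on a log scale (vertical axis) for the 30 tested members, grouped by role (horizontal axis), with 1 point per library, blue for SoLo and orange for SMARTseq, and open triangles for RNA sample 1. The Gq and Gs genes egl-30 and gsa-1 sit higher in SMARTseq, goa-1 and the beta genes sit higher in SoLo, and several G alpha genes of the middle block have their triangles far above the other points in both kits.

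Of the 40 members, 30 passed the filter on low counts and were tested. SoLo was higher for 10 of them (33.3%, against 20.0% of all tested genes) and SMARTseq for 9 (30%, against 27.6% of all tested genes), and 11 were not called. The median log2 fold change of the tested members was 0.48, that of all tested genes 0.01. The members thus fell on both sides, and the 4 SoLo and 4 SMARTseq values did not overlap for 17 of them, 56.7% against 46.2% of all tested genes. Each of the 19 called members had its direction in all 4 RNA samples. With library totals as the only scaling, which moved the median of all genes from 0.01 to 0.56, SoLo exceeded SMARTseq for 12 members and SMARTseq exceeded SoLo for 6, against 4328 (38.0%) and 2386 of the 11378 tested genes. No called member changed sign under that scaling, but eat-16, gpa-9 and rgs-3 were no longer called. When RNA samples 2 to 4 were added up in each kit, leaving 2 libraries per kit, 11 calls were lost: eat-16, goa-1, gpa-5, gpa-6, gpa-9, gpa-16, gpb-2, gpc-2, rgs-2, rgs-3 and rgs-6. Calls over all genes fell as well, from 2276 to 490 towards SoLo and from 3139 to 851 towards SMARTseq, so the loss is not particular to the members.

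The library numbers were taken to pair the RNA samples. With the RNA sample as a replicate block SoLo exceeded SMARTseq for 14 members and SMARTseq exceeded SoLo for 9. The shares of all tested genes were 28.9% and 32.2%. The 4 members added were gpa-1, gpa-2, gpa-3 and odr-3, all higher in SoLo. Without RNA sample 1 in both kits, 28 members were tested, and SoLo exceeded SMARTseq for 12 and fell short of it for 8, against 26.2% and 32.2% of the genes tested there.

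**Figure D2:**
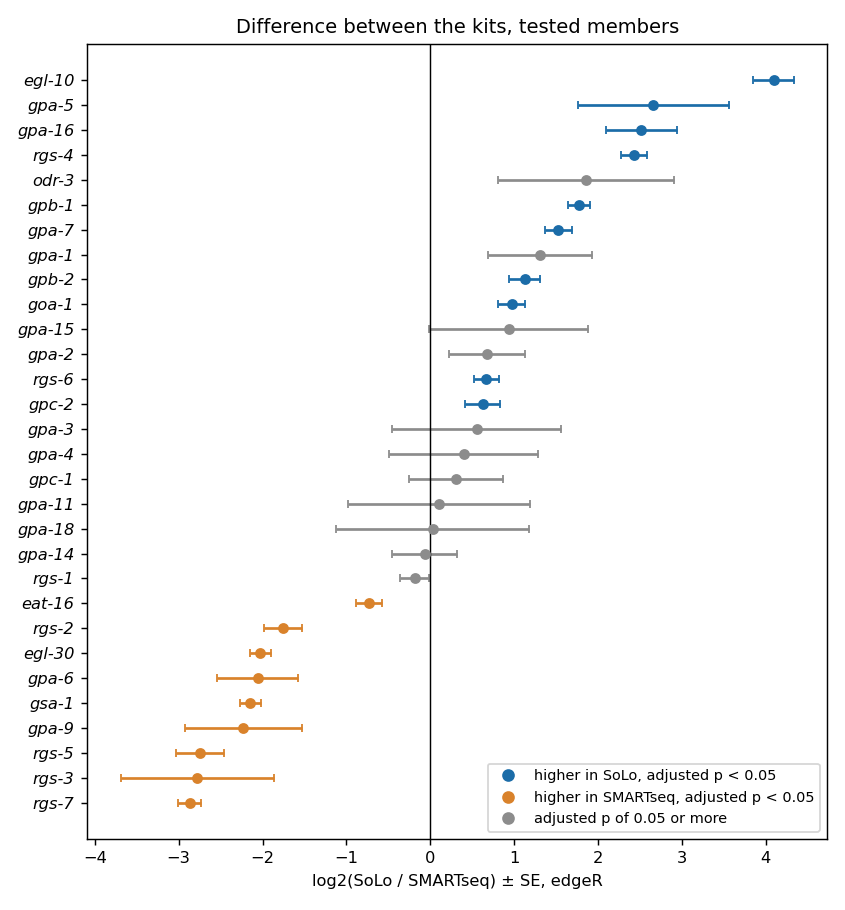
Log2(SoLo/SMARTseq) with its SE from edgeR (horizontal axis, n = 4 libraries per kit) for each tested member (vertical axis), blue where the gene was higher in SoLo, orange where it was higher in SMARTseq and grey where the adjusted p was 0.05 or more. The largest difference towards SoLo is that of egl-10 at 4.10 and the largest towards SMARTseq that of rgs-7 at -2.87.

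The 3 abundant G alpha genes did not move together. The Gq gene egl-30, at chromosome I 1835661 to 1841965 on WBcel235, had 1488, 1599, 1855 and 1761 CPM in SoLo libraries 1 to 4 and 5936, 7394, 7136 and 6851 CPM in SMARTseq libraries 1 to 4. The Gs gene gsa-1 (chromosome I 1068484 to 1074343) had 726, 778, 866 and 849 CPM in SoLo, against 3152, 3940, 3523 and 3611 CPM in SMARTseq. The Go gene goa-1 (chromosome I 7522116 to 7526716) had 1176, 1459, 1573 and 1459 CPM in SoLo, against 617, 718, 648 and 905 CPM in SMARTseq. For egl-30 and gsa-1 every SMARTseq library was above every SoLo library, and for goa-1 the order was the reverse. The log2 fold change was -2.03 ± 0.13 for egl-30 (edgeR adjusted p = 2.13e-06), -2.14 ± 0.13 for gsa-1 (1.47e-06) and 0.97 ± 0.16 for goa-1 (0.000819). SMARTseq thus gave 4.07-fold and 4.42-fold more of the first and the second, and SoLo 1.96-fold more of the third.

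Within 1 library the balance of these genes differed accordingly. Per kilobase of exon, goa-1 stood at 1.54 to 1.77 times egl-30 in the SoLo libraries and at 0.177 to 0.257 times egl-30 in the SMARTseq libraries. The ratio of gsa-1 to egl-30 per kilobase was much closer between the kits, 1.12 to 1.17 in SoLo and 1.18 to 1.28 in SMARTseq, and these ranges did not overlap. Of the summed level per kilobase of all G alpha genes, goa-1 held 38.1% ± 3.77 (SD, n = 4) in SoLo and 8.13% ± 1.25 in SMARTseq. The shares of gsa-1 were 26.7% ± 1.45 and 49.3% ± 1.19, and those of egl-30 23.2% ± 1.54 and 39.6% ± 1.63. Together the 3 genes made up 87.9% ± 6.45 of this sum in SoLo and 97.04% ± 2.40 in SMARTseq.

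SoLo gave more of both G beta genes. GPB-1 is the beta subunit that pairs with G alpha and G gamma subunits in most cells, and its gene (chromosome II 11742811 to 11748611) had 2325, 2611, 3142 and 2869 CPM in SoLo, against 778, 806, 759 and 862 CPM in SMARTseq. GPB-2 is the divergent beta subunit that binds the RGS proteins EGL-10 and EAT-16, and its gene (chromosome I 7318290 to 7321085) had 106, 163, 133 and 135 CPM in SoLo, against 57.3, 71.8, 64.7 and 51.2 CPM in SMARTseq. In neither gene did the kits overlap. The log2 fold change was 1.77 ± 0.13 for gpb-1 (edgeR adjusted p = 5.11e-06) and 1.13 ± 0.18 for gpb-2 (0.000782). Per kilobase, gpb-1 was 9.38 to 13.8 times as abundant as gpb-2 in SoLo and 6.56 to 9.84 times in SMARTseq, ranges that overlap.

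Of the G gamma genes, gpc-2, which is expressed in most cells, was higher in SoLo, while no call was made for gpc-1, which acts in sensory neurons. For gpc-2 (chromosome I 6757763 to 6758178) the SoLo libraries had 281, 417, 432 and 416 CPM and the SMARTseq libraries 174, 278, 243 and 307 CPM. The kits overlapped only through SoLo library 1, which lay below SMARTseq library 4. The log2 fold change of gpc-2 was 0.63 ± 0.21 (edgeR adjusted p = 0.0337), and 1.45 when the trend with gene length was taken out. This call was lost when any of SoLo libraries 2, 3 and 4 or SMARTseq libraries 2 and 3 was left out, with adjusted p from 0.0574 to 0.0832, and it held with the replicate block (9.14e-05) and without RNA sample 1 (0.000282). For gpc-1 (chromosome X 12881109 to 12884989) the values were 51.3, 16.2, 19.1 and 16.3 CPM in SoLo and 45.7, 12.4, 14.3 and 10.4 CPM in SMARTseq, and the log2 fold change was 0.31 ± 0.56 (edgeR adjusted p = 0.681). In all 4 RNA samples gpc-1 was higher in SoLo, and the libraries of RNA sample 1 held the highest value in both kits.

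The RGS genes egl-10 and eat-16 differed between the kits in opposite directions. EGL-10 acts on GOA-1 and EAT-16 on EGL-30, and both belong to the RGS family that binds GPB-2. For egl-10 (chromosome V 12453290 to 12463008) SoLo gave 238, 261, 247 and 271 CPM and SMARTseq 21.5, 11.5, 14.9 and 11.2 CPM. For eat-16 (chromosome I 9722716 to 9726284) SoLo gave 335, 335, 311 and 344 CPM and SMARTseq 712, 503, 476 and 512 CPM. Every SoLo value of egl-10 was far above every SMARTseq value, and the eat-16 values did not overlap either. The log2 fold change of egl-10 was 4.10 ± 0.24 (edgeR adjusted p = 1.48e-06), a 17.1-fold difference and the largest among the tested members. That of eat-16 was -0.73 ± 0.16 (edgeR adjusted p = 0.00361), and -0.19 with an adjusted p of 0.307 when only library totals were used for scaling. Per kilobase, egl-10 stood at 0.411 ± 0.0209 times eat-16 in SoLo and at 0.0142 ± 0.00260 times eat-16 in SMARTseq (SD, n = 4).

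Among the other tested RGS genes rgs-4 and rgs-6 were higher in SoLo, rgs-2, rgs-3, rgs-5 and rgs-7 in SMARTseq, and rgs-1 was not called. The gene rgs-4 (chromosome II 12654747 to 12672415) had 243, 204, 226 and 241 CPM in SoLo, against 49.0, 44.0, 37.6 and 38.7 CPM in SMARTseq. RGS-7 is a C2-domain protein known from spindle positioning in the embryo, and rgs-7 (chromosome X 3542542 to 3557783) had 46.9, 42.4, 40.9 and 41.8 CPM in SoLo, against 297, 328, 325 and 308 CPM in SMARTseq. These 2 genes exchanged places: per kilobase of exon, rgs-4 stood at 9.22 to 11.03 times rgs-7 within the SoLo libraries and at 0.222 to 0.316 times within the SMARTseq libraries. The log2 fold change was 2.43 ± 0.15 for rgs-4 (edgeR adjusted p = 2.19e-06) and -2.87 ± 0.13 for rgs-7 (6.64e-07). For rgs-6 (chromosome X 5720381 to 5733778) SoLo ranged from 242 to 275 CPM and SMARTseq from 141 to 192 CPM, with 0.67 ± 0.15 (edgeR adjusted p = 0.00404).

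RGS-1 and RGS-2 both act on GOA-1, and their genes differed in the kit comparison. The values of rgs-2 (chromosome X 12712653 to 12728391) were 194, 125, 146 and 147 CPM in SoLo and 731, 399, 495 and 438 CPM in SMARTseq, with -1.75 ± 0.23 (edgeR adjusted p = 0.000176). Those of rgs-1 (chromosome III 10014188 to 10016558) were 130, 87.5, 96.4 and 101 CPM in SoLo and 130, 124, 98.1 and 121 CPM in SMARTseq, with -0.19 ± 0.17 (edgeR adjusted p = 0.407). The kits overlapped for rgs-1, which was lower in SoLo in 3 of the 4 RNA samples. For rgs-5 (chromosome III 5698555 to 5702305) SoLo lay at 5.49 to 12 CPM and SMARTseq at 42.5 to 70.2 CPM, with -2.75 ± 0.29 (edgeR adjusted p = 4.31e-05). RGS-3 dampens signalling in sensory neurons, and rgs-3 (chromosome II 6099800 to 6110126) had 133, 15.5, 16 and 15.2 CPM in SoLo, against 784, 159, 163 and 134 CPM in SMARTseq. Its lowest SMARTseq value was only just above the SoLo value of RNA sample 1, and edgeR gave -2.78 ± 0.91 (adjusted p = 0.0303). Without SoLo library 1 the value for rgs-3 was -4.28, and without SMARTseq library 1 it was -1.77 and not called (edgeR adjusted p = 0.0654). The rgs-3 call was also lost without SoLo library 2, 3 or 4 (edgeR adjusted p of 0.0808 to 0.0817). Without RNA sample 1 in both kits the log2 fold change of rgs-3 was -3.31 (edgeR adjusted p = 1.01e-08).

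Of the 18 other G alpha genes, 14 were tested, 3 were higher in SoLo, 2 in SMARTseq and 9 were not called. The shares of 21.4% and 14.3% compare with 20.0% and 27.6% of all tested genes. The gene gpa-7 (chromosome IV 10404008 to 10408747), expressed in neurons and muscle, had the highest mean level of them in both kits, although gpa-3 was above it in SMARTseq library 1 (61.2 CPM). Its 4 values were 141, 148, 124 and 126 CPM in SoLo against 55.2, 38.8, 47.7 and 44.5 CPM in SMARTseq, with 1.53 ± 0.16 (edgeR adjusted p = 5.46e-05). GPA-16 takes part with GOA-1 in spindle positioning in the embryo, and gpa-16 (chromosome I 897286 to 907370) had 8.78, 17.7, 10.3 and 17.3 CPM in SoLo, against 1.69, 1.64, 2.1 and 4 CPM in SMARTseq, with 2.52 ± 0.42 (edgeR adjusted p = 0.000927). Its exons share 5.51% of their bases with a small nucleolar RNA gene on the same strand, Y95B8A.18. Same-strand genes also cover 5.68% of the exon bases of rgs-2 (F16H9.6) and 4.84% of those of egl-30 (M01D7.11 and C53H9.4), so some reads of these 3 genes may belong to the overlapping genes.

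GPA-5 acts in olfaction in the AWA neurons. For gpa-5 (chromosome X 2118894 to 2121061) there were 47, 15, 25 and 13 reads in SoLo libraries 1 to 4 and 9, 0, 15 and 0 reads in SMARTseq libraries 1 to 4. These correspond to 12.9, 5.30, 5.98 and 4.50 CPM in SoLo and 1.52, 0, 2.62 and 0 CPM in SMARTseq. The kits did not overlap and the log2 fold change of gpa-5 was 2.66 ± 0.90 (edgeR adjusted p = 0.0343). The gpa-5 call was lost without any single SoLo library or without SMARTseq library 2 or 4 (edgeR adjusted p from 0.0549 to 0.0916), and the estimate was 3.53 without SMARTseq library 3. Without RNA sample 1 in both kits its adjusted p was 0.0563.

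Higher in SMARTseq were gpa-6 and gpa-9. For gpa-6 (chromosome X 13191212 to 13194390) the values were 5.76, 3.53, 3.11 and 1.38 CPM in SoLo and 22.5, 16.9, 10.5 and 8.26 CPM in SMARTseq, with -2.06 ± 0.48 (edgeR adjusted p = 0.00595). For gpa-9 (chromosome V 12645477 to 12649313) the values were 2.47, 1.77, 1.20 and 0.692 CPM in SoLo and 17.4, 4.91, 2.45 and 4.26 CPM in SMARTseq, with -2.23 ± 0.70 (edgeR adjusted p = 0.0249). The kits overlapped for gpa-9, and 36.8% of its exon bases lie under F56H9.8 on the opposite strand, so with the strand setting not given its reads are uncertain. The gpa-9 call was lost without SMARTseq library 1 (log2 fold change -1.32) and without SoLo library 2, 3 or 4, with edgeR adjusted p from 0.0554 to 0.0775, and the gene was not tested without RNA sample 1 in both kits.

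The 9 tested G alpha genes without a call were gpa-1, gpa-2, gpa-3, gpa-4, gpa-11, gpa-14, gpa-15, gpa-18 and odr-3. Many of them act in chemosensory neurons: ODR-3 transduces odours in AWA, AWB and AWC neurons and GPA-2 and GPA-3 take part in sensing the dauer pheromone. Their log2 fold changes lay between -0.06 ± 0.39 for gpa-14 and 1.86 ± 1.05 for odr-3 (edgeR adjusted p = 0.907 and 0.176). RNA sample 1 held the highest SoLo value of each of the 9 genes. For odr-3 (chromosome V 13246324 to 13249536) SoLo gave 71.1, 13.1, 12.7 and 8.99 CPM and SMARTseq 18.0, 8.89, 1.92 and 0 CPM. For gpa-2 (chromosome V 8371005 to 8374034) SoLo gave 70.0, 30.7, 29.2 and 30.4 CPM and SMARTseq 49.5, 17.8, 15.7 and 17.1 CPM. In both of these genes SoLo exceeded SMARTseq in each of the 4 RNA samples, although the libraries of the kits overlapped. With the RNA sample as a replicate block, the log2 fold change was 2.06 for odr-3 (edgeR adjusted p = 0.00265), 0.74 for gpa-2 (0.00253), 0.79 for gpa-3 (0.0117) and 1.43 for gpa-1 (0.00192). Without RNA sample 1 in both kits it was 0.81 for gpa-2 (edgeR adjusted p = 0.00423), 0.95 for gpa-3 (0.0392), 1.60 for gpa-1 (0.00502) and 1.66 for odr-3, which was not called (0.103). A single library of RNA sample 1 moved these values. Without SoLo library 1 the log2 fold change was 0.70 for odr-3, 0.80 for gpa-1, 0.30 for gpa-2 and -0.82 for gpa-3, none called. Without SMARTseq library 1 it was 2.86 for odr-3 (edgeR adjusted p = 0.0425), 2.15 for gpa-1 (0.00551), 1.23 for gpa-2 (0.0133) and 2.36 for gpa-3 (0.0343). Of gpa-1, 18.9% of the exon bases lie under T19C4.5 on the opposite strand, so part of its reads is uncertain. For gpa-1 (chromosome V 11174433 to 11177677) SoLo gave 30.5, 14.5, 8.61 and 9.34 CPM and SMARTseq 14.6, 3.04, 3.15 and 4.26 CPM. For gpa-15 (chromosome I 8531684 to 8534527) SoLo gave 16.2, 2.47, 2.63 and 3.80 CPM and SMARTseq 8.64, 0.234, 0.874 and 3.20 CPM. SoLo was above SMARTseq in all 4 RNA samples for both, and the kits overlapped. For gpa-4 (chromosome IV 401695 to 405273) the values were 20.6, 3.88, 3.35 and 2.08 CPM in SoLo and 14.1, 4.21, 0.874 and 3.47 CPM in SMARTseq. For gpa-14 (chromosome I 5942390 to 5945651) they were 26.3, 16.9, 18.2 and 12.8 CPM in SoLo and 27.1, 9.36, 13.8 and 27.5 CPM in SMARTseq. Each kit was the higher in 2 of the 4 RNA samples for gpa-4 and for gpa-14, as also for gpa-11 and gpa-18. Opposite-strand genes cover 7.96% of the exon bases of gpa-14 and 8.17% of those of gpa-18, and up to 5.46% of those of the remaining tested members apart from gpa-1 and gpa-9.

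The remaining 10 members were not tested: gpa-8, gpa-10, gpa-12, gpa-13, gpa-17, rgs-8.1, rgs-8.2, rgs-9, rgs-10 and rgs-11. For gpa-12, the G12 gene, only 15 reads were counted in the 4 SoLo libraries together and 12 in the 4 SMARTseq libraries. The ratio of SoLo to SMARTseq per effective library was 1.81 with an exact 95% interval of 0.792 to 4.24, which covers counting error only. GPA-13 acts in olfaction, and gpa-13 had 63 and 133 reads, of which 49 and 112 were in the libraries of RNA sample 1. For gpa-10 the sums were 54 and 102 reads, for gpa-8 14 and 26, for gpa-17 22 and 25, for rgs-10 3 and 13 and for rgs-11 5 and 32. In SoLo rgs-9 had 0 reads, which allows up to 0.221 CPM over the 4 libraries, and in SMARTseq it had 17 reads, at least 3.91-fold higher. Of these 17 reads 15 were in SMARTseq library 1, and without it the remaining 2 reads were under the floor of 3 counts, so that no fold can be given. The genes rgs-8.1 and rgs-8.2 had 0 reads in all 8 libraries. Both have 690 exonic bases at chromosome X 1952479 to 1953560 and 1943950 to 1945031, and if they are near-identical copies their reads may have been dropped in counting, which was not tested.

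Thinned to an equal total of 2354681 counts, 31.5 ± 2.38 members (SD, n = 4) had at least 5 reads in SoLo and 28 ± 4.08 in SMARTseq. By library the numbers were 34, 33, 30 and 29 in SoLo and 34, 26, 25 and 27 in SMARTseq. RNA sample 1 gave the highest number in both kits, and the ranges overlapped through that sample. All 4 SoLo libraries detected gpa-5 and gpa-16 in this way, against 1 SMARTseq library each, and odr-3 and gpa-15 were detected in 4 SoLo and 2 SMARTseq libraries. No member was detected in all 4 libraries of 1 kit and in none of the other. Only totals were matched: TMM factors were 1.20 to 1.22 in SoLo and 0.800 to 0.851 in SMARTseq, and the scaled depth was therefore not equal. Without thinning, 32 ± 2.16 and 31.75 ± 4.5 members had at least 5 reads.

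Per kilobase of exon the 5 most abundant members were the same in both kits, in a different order. In SoLo they were gpb-1 with 1113 ± 142 CPM per kb (SD, n = 4), gpc-2 with 1059 ± 193, goa-1 with 701 ± 83.8, gsa-1 with 491 ± 39.5 and egl-30 with 427 ± 41.7. In SMARTseq they were gsa-1 with 2169 ± 198 CPM per kb, egl-30 with 1739 ± 162, gpc-2 with 686 ± 157, goa-1 with 357 ± 63.8 and gpb-1 with 326 ± 18.2. The neighbours gpb-1 and gpc-2 in SoLo, gsa-1 and egl-30 in SoLo, and goa-1 and gpb-1 in SMARTseq had overlapping ranges of mean ± SD. In both kits eat-16 came next, with 138 ± 5.97 CPM per kb in SoLo and 229 ± 45.2 in SMARTseq. The rank of egl-10 was 13 of the 40 members in SoLo and 27 in SMARTseq, with 56.4 ± 3.22 and 3.27 ± 1.07 CPM per kb. That of rgs-7 was 21 and 9, with 11.2 ± 0.699 and 82.2 ± 3.78 CPM per kb. Across the 30 tested members the levels per kilobase in the kits had a Spearman correlation of 0.786, and across 10645 tested protein-coding genes 0.739, as descriptions of genes that share libraries. The fold change and exonic length had a Spearman correlation of -0.194 across the tested members and 0.303 across the tested protein-coding genes.

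**Figure D3:**
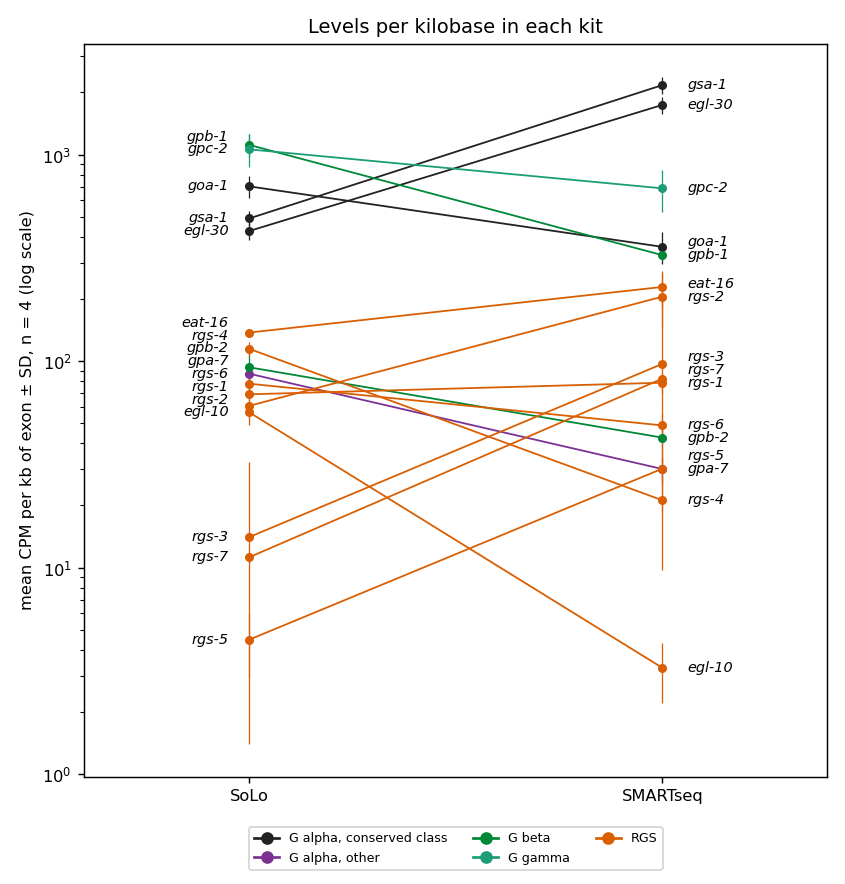
Mean CPM per kilobase of exon with its SD (n = 4 libraries, log scale, vertical axis) in SoLo (left) and SMARTseq (right) for the members among the 13 highest in either kit, with lines joining the same gene. The lower part of a bar is cut where the SD comes near to or exceeds the mean (rgs-3). The lines of egl-10 and rgs-4 fall towards SMARTseq while those of gsa-1, egl-30, rgs-3, rgs-5 and rgs-7 rise.

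In both kits RNA sample 1 held far more of several G alpha transcripts than RNA samples 2 to 4. For gpa-3 (chromosome V 9356581 to 9359774) the values were 82.3 CPM in RNA sample 1 and 10.9, 10.5 and 11.1 CPM in RNA samples 2 to 4 with SoLo, and 61.2 against 7.49, 5.07 and 4 CPM with SMARTseq. For gpa-18 (chromosome IV 5189007 to 5195631) they were 35.1 against 3.18, 2.87 and 2.77 CPM with SoLo and 35.6 against 1.87, 2.97 and 2.40 CPM with SMARTseq. The 2 kits gave nearly the same level in RNA sample 1 for gpa-18, and similar ones for gpa-11, with 22.5 CPM in SoLo and 20.2 CPM in SMARTseq. For gpa-11 RNA samples 2 to 4 had 2.82, 1.91 and 1.73 CPM with SoLo and 3.28, 2.80 and 0.533 CPM with SMARTseq. GPA-11 acts in the nociceptive neurons ADL and ASH.

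As a ratio of RNA sample 1 to the median of RNA samples 2 to 4, gpa-18 reached 12.2 in SoLo and 14.8 in SMARTseq, gpa-11 11.8 and 7.21, gpa-3 7.52 and 12.1, gpa-4 6.15 and 4.06, gpa-15 6.15 and 9.88, and odr-3 5.61 and 9.34. Among the RGS genes rgs-3 stood apart with 8.58 in SoLo and 4.93 in SMARTseq, and among the other subunits gpc-1 with 3.16 and 3.69. At the low end were gpc-2 with 0.675 and 0.626, goa-1 with 0.806 and 0.861, egl-30 with 0.845 and 0.832, and gsa-1 with 0.855 and 0.873. Also below 1 in both kits were gpb-1 with 0.810 and 0.965, gpb-2 with 0.785 and 0.885, gpa-16 with 0.508 and 0.807, and rgs-5 with 0.604 and 0.742. The 2 G gamma genes thus lay on opposite sides of 1. Of the tested members, RNA sample 1 was below each of the other samples in both kits for egl-30, goa-1, gsa-1, gpc-2 and rgs-5, 16.7% against 24.3% of all tested genes. These are descriptions of 1 RNA sample against 3 and carry no test, and in bulk RNA more cells of a type and more RNA per cell cannot be told apart.

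With a 3-fold excess of RNA sample 1 over each of RNA samples 2 to 4 as the criterion, chosen after the values were seen, 7 of the 30 tested members passed in SoLo (23.3%, against 3.34% of all tested genes) and 8 in SMARTseq (26.7%, against 4.25%). In both kits at once 5 passed (gpa-3, gpa-4, gpa-11, gpa-18 and rgs-3), against 2.29% of all tested genes. High values in RNA sample 1 can help a gene of low level pass the filter on counts, though not alone, so these shares are descriptions. Among the untested members gpa-13 and gpa-10 had ratios of 9.37 and 7.93 in SoLo and 20.3 and 19.5 in SMARTseq, from few reads. Across 29 tested members with a ratio in both kits, the ratios had a Spearman correlation of 0.943, and across 11008 tested genes 0.657, each pair of values coming from the same RNA.

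**Figure D4:**
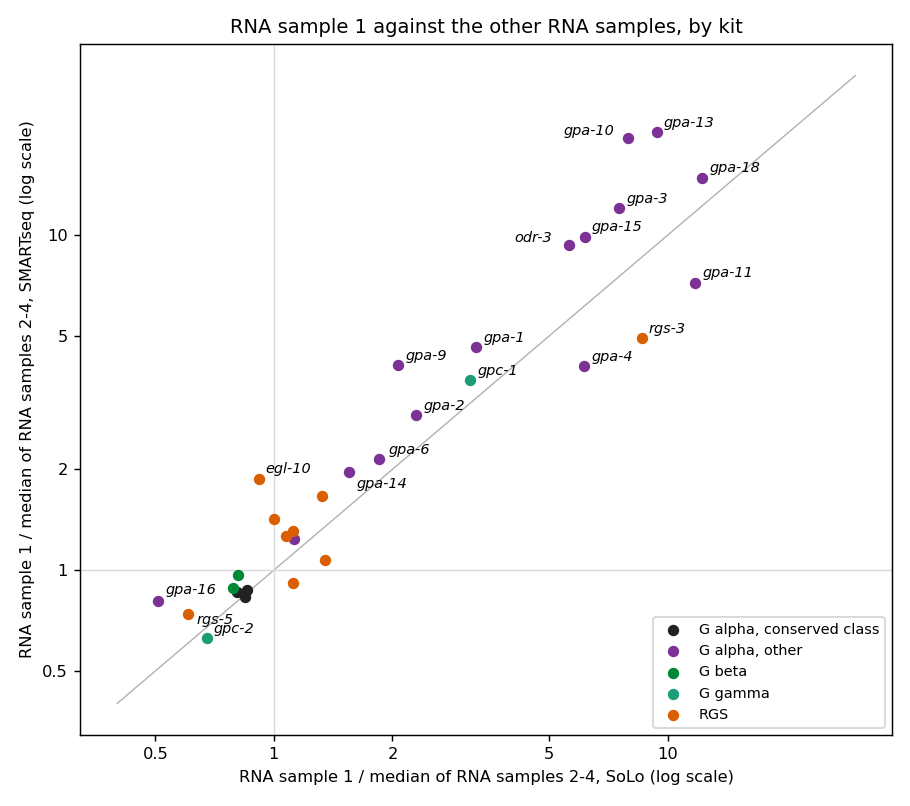
Ratio of RNA sample 1 to the median of RNA samples 2 to 4 in SoLo (horizontal axis, log scale) and in SMARTseq (vertical axis, log scale) for members with at least 50 reads in all and a ratio in both kits, coloured by role, with a line where both ratios are equal. The genes gpa-1, gpa-3, gpa-4, gpa-10, gpa-11, gpa-13, gpa-15, gpa-18, odr-3, rgs-3 and gpc-1 lie above 3 in both kits, while goa-1, egl-30, gsa-1, gpb-1, gpb-2, gpc-2, gpa-16 and rgs-5 lie below 1.

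Marker lists moved with RNA sample 1 as well. The summed pan-neuronal markers were 24486 CPM in RNA sample 1 and 17338 to 17636 CPM in RNA samples 2 to 4 with SoLo, and 35089 against 26267 to 28638 CPM with SMARTseq. The 10 genes did not go one way: 5 were above and 4 below all other samples in SoLo, and 4 above and 5 below in SMARTseq, with 4 of them below in both kits. Hypodermal markers were lower in sum, at 122 against 139 to 165 CPM with SoLo and 297 against 750 to 1028 CPM with SMARTseq. Of the 5 tested, 4 were below all other samples in each kit and 1 was above them in SoLo. Germline markers were likewise lower in sum, at 311 against 410 to 521 CPM and 222 against 400 to 490 CPM. Of these 7, 4 were below all other samples in SoLo and 5 in SMARTseq. The highest germline ratio to the median of RNA samples 2 to 4 was 2.33 in SoLo and 2.02 in SMARTseq. Muscle markers were at 5970 against 6828 to 7446 CPM with SoLo and 4322 against 4344 to 5802 CPM with SMARTseq, but 5 of the 8 were above and 2 below all other samples in SoLo, and 3 above and 3 below in SMARTseq. Intestinal markers were higher, at 459 against 279 to 346 CPM and 170 against 114 to 136 CPM. Glial markers were at 19.8 against 13.1 to 14.9 CPM with SoLo and within the range of the others with SMARTseq. Their part in the RNA sample 1 values of the members was not tested.

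Genes around the G protein cycle were taken from a list of 54, of which 53 were in the table and 50 were tested. SoLo was higher for 23 and SMARTseq for 10, 46% and 20.0% against 20.0% and 27.6% of all tested genes, and the median log2 fold change was 0.47. Higher in SoLo, and so opposite in direction to egl-30, were egl-8, the phospholipase C beta that EGL-30 activates, with 1.04 ± 0.13 (edgeR adjusted p = 0.000161), and dgk-1, the diacylglycerol kinase that opposes it, with 2.38 ± 0.17 (4.79e-06). The inositol trisphosphate receptor gene itr-1 was also higher in SoLo, with 16.9 ± 5.78 CPM in SoLo and 3.12 ± 1.85 CPM in SMARTseq (SD, n = 4) and 2.43 ± 0.48 (edgeR adjusted p = 0.00232), or 1.39 with the length trend taken out.

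On the Gs side, 3 of 8 genes (37.5%) were higher in each kit, against 20.0% of all tested genes for SoLo and 27.6% for SMARTseq. The subunits of protein kinase A, the target of cyclic AMP, parted: kin-1, the catalytic subunit, stood at 1053 ± 36.8 CPM in SoLo against 2883 ± 88.5 CPM in SMARTseq (SD, n = 4), with -1.45 ± 0.10 (edgeR adjusted p = 4.26e-06), while kin-2, the regulatory subunit, stood at 1384 ± 181 and 563 ± 83.7 CPM, with 1.30 ± 0.16 (edgeR adjusted p = 0.000123). The phosphodiesterase gene pde-4 (chromosome II 7627250 to 7651246) was higher in SMARTseq, with -2.06 ± 0.15 (edgeR adjusted p = 4.57e-06). The gene of the dense core vesicle protein UNC-31 (chromosome IV 12773867 to 12788354) was higher in SoLo, with 296 ± 18.8 CPM against 32.1 ± 11.3 CPM and 3.21 ± 0.28 for unc-31 (edgeR adjusted p = 1.53e-05), or 2.53 with the length trend taken out.

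Among receptors and proteins of the cycle, 3 of 12 were higher in SoLo, 4 in SMARTseq and 5 were not called. The shares of 25% and 33.3% compare with 20.0% and 27.6% of all tested genes. The receptor kinase genes differed in direction. For grk-2 (chromosome III 676122 to 680658), needed for chemosensation, SoLo gave 198, 166, 161 and 171 CPM and SMARTseq 14.4, 11.5, 10.1 and 10.7 CPM, with 3.89 ± 0.18 (edgeR adjusted p = 6.93e-07). For grk-1 (chromosome X 9991248 to 9999208) SoLo gave 183, 171, 149 and 157 CPM and SMARTseq 637, 669, 696 and 474 CPM, with -1.91 ± 0.16 (edgeR adjusted p = 1.16e-05), and 7.85% of its exon bases lie under an antisense RNA gene. The spindle genes lin-5 and gpr-1, whose proteins work with GOA-1 and GPA-16 in the embryo, had -2.70 ± 0.22 and -2.21 ± 0.40 (edgeR adjusted p = 8.9e-06 and 0.00134). Reads of gpr-1 are uncertain, because gpr-2 is a close copy of it. The gene rsbp-1, whose protein binds EGL-10 and EAT-16, had 1.41 ± 0.21 (edgeR adjusted p = 0.00049), with 297 ± 14.8 CPM in SoLo and 112 ± 32.4 CPM in SMARTseq.

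On the sensory side, SoLo exceeded SMARTseq for 2 of 10 tested genes and the reverse held for 1, against 20.0% and 27.6% of all tested genes, and the median log2 fold change was 0.0029. Under the replicate block the counts were 3 and 4, against 28.9% and 32.2%. These genes include the cyclic nucleotide channel genes tax-2 and tax-4 and the receptor guanylyl cyclase genes odr-1 and daf-11. The median ratio of RNA sample 1 to RNA samples 2 to 4 over the 10 tested genes was 4.12 in SoLo and 5.28 in SMARTseq. For all tested genes it was 0.963 and 0.975. Of the 10, 7 passed the 3-fold criterion in SoLo (70%, against 3.34% of all tested genes) and 5 in SMARTseq (50%, against 4.25%). The ratios in SoLo and SMARTseq were lower for egl-4 (0.881 and 0.997), pde-2 (1.24 and 1.60) and pde-1 (1.48 and 2.20). The diacetyl receptor gene odr-10 had 283 CPM in RNA sample 1 and 3.53 to 8.65 CPM in RNA samples 2 to 4 with SoLo, and 292 against 5.15 to 10.9 CPM with SMARTseq. For Gi and Go targets SoLo exceeded SMARTseq for 3 of 5 genes and the reverse held for 2, against 20.0% and 27.6% of all tested genes. The latter were the potassium channel genes irk-1 and irk-2, and the irk-2 call was lost without RNA sample 1 in both kits (edgeR adjusted p = 0.0699), with library totals only (0.453) and with DESeq2 (0.0664). With RNA samples 2 to 4 added up neither was called, nor were egl-8, itr-1, kin-1, kin-2, rsbp-1, gpr-1, rhgf-1 and pry-1. In that setting 5 pathway genes were called towards SoLo and 3 towards SMARTseq, in place of 23 and 10. Over all genes 490 and 851 were called, in place of 2276 and 3139. The G12 effector gene rhgf-1 had 1.04 ± 0.18 (edgeR adjusted p = 0.00114), and of the 2 other RGS-domain genes pry-1 had 1.33 ± 0.26 (edgeR adjusted p = 0.00215) and axl-1 was not tested.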

How the data were processed

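RNA sequencing was analysed from the raw counts of reads per gene that the authors deposited, 1 column per library, not normalised. The submitters' processing notes list STAR, SAMtools, featureCounts and WBcel235. Not given in the sources used here: strandedness in counting, handling of multi-mapped reads, use of molecular identifiers, and which gene annotation was counted. Without identifiers reads are not independent molecules, so intervals and floors cover counting error only. The number of columns that belonged to no listed sample was 0. Of 46748 genes, 46302 were found in Ensembl release 115 (WBcel235), all 40 members included. Exonic length is the union of annotated exons.

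The kits were compared with edgeR 4.0.16 in R 4.3.3 (quasi-likelihood test, TMM, filterByExpr by kit, all 8 libraries, no replicate block, Benjamini-Hochberg adjustment over 11378 genes). The SE is approximate, obtained by dividing the size of the log2 fold change by the root of the F statistic. Library sizes enter the CPM with their TMM factors. The fit was tested on simulated data. The study divided each RNA sample between the kits, and same-numbered libraries were taken as pairs. Deviations from the kit mean correlated between same-numbered libraries (0.741, 0.342, 0.333 and 0.298 for RNA samples 1 to 4). Among RNA samples 2 to 4, libraries of different number correlated at 0.155 to 0.317, the highest being SoLo library 4 with SMARTseq library 3. The correlations thus single out RNA sample 1 and cannot settle how the other libraries pair. Members and lists were chosen with earlier results of these data known. Named pathway genes are the 4 called towards each kit with the largest fold changes whose libraries do not overlap; 1 of them is not reported here, and others were named after their values were seen. Leaving out RNA sample 1 in both kits was an alternative added after the data were seen.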

Additional observations from a re-analysis of the deposited data

Results flagged for a closer look

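For 17 members, 25 sets of 4 libraries of 1 kit held a library whose gap to its nearest neighbour, as a share of the range of the set, was above the critical value of Dixon's test at 95%. In all 25 the library apart was that of RNA sample 1. Dixon's test was applied to 75 sets, and chance alone passes about 1 in 20.

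Among the G alpha genes the gap was 0.992 of the range in SoLo and 0.939 in SMARTseq for gpa-3, 0.987 and 0.967 for gpa-18, 0.962 and 0.939 for gpa-2, 0.947 and 0.86 for gpa-11, 0.941 and 0.865 for gpa-13, and 0.884 and 0.895 for gpa-10. In SoLo it was 0.934 for odr-3, 0.903 for gpa-15, 0.902 for gpa-4 and 0.895 for gpa-8. In SMARTseq it was 0.894 for gpa-1 and 0.836 for gpa-9. RNA sample 1 was the highest library in each of these sets.

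Of the RGS genes, rgs-3 had gaps of 0.993 in SoLo and 0.955 in SMARTseq, and in SMARTseq eat-16 had 0.849 and rgs-11 0.893, each with RNA sample 1 highest. The G gamma genes went in opposite directions: gpc-1 had 0.917 and 0.888 with RNA sample 1 highest, and gpc-2 had 0.892 in SoLo with RNA sample 1 lowest.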

How the results depend on the processing

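No called member changed sign under any alternative run. Over 38 named genes there were 704 gene values under alternatives. Of these, 609 kept direction and, where an adjusted p was given, side of the threshold. The call was lost in 36 and gained in 17, 15 moved without a test and 27 changed sign, all 27 in genes without a call. The 15 that moved and 21 of the 609 came from taking out the length trend, which has no test. The same 19 members were called by DESeq2, with DESeq2 size factors, with no filter and with protein-coding library sizes. The replicate block added 4 members (14 towards SoLo, 9 towards SMARTseq) and ended no call. With RNA samples 2 to 4 summed within each kit beside RNA sample 1, which leaves 2 libraries per kit, 11 member calls were lost. SoLo was then higher for 4 members and SMARTseq for 4, and for 5 and 3 pathway genes. Of all genes 490 and 851 were called, in place of 2276 and 3139. With library totals only, 4328 of all genes were higher in SoLo. Changes of sign were as follows (log2 fold change). For gpa-14 the value was 0.48 with library totals, 0.012 with DESeq2 size factors, 0.032 without a filter, 0.022 with the replicate block, 0.097 with the summed samples, 0.024 without RNA sample 1 with the block, 0.050 with DESeq2 and 0.34 with the length trend taken out. For rgs-1 it was 0.36 with library totals, 0.016 with the summed samples and 0.13 with the length trend taken out. With 1 library left out at a time, gpa-14 ranged from -0.32 to 0.13, gpa-15 from -0.11 to 2.15, gpa-11 from -1.61 to 0.48, gpa-4 from -0.83 to 1.42, gpa-18 from -1.84 to 2.15, gpa-3 from -0.82 to 2.36 and gpc-1 from -0.24 to 1.03. The cause was not tested. At the reads counted, intervals of the ratio of SoLo to SMARTseq include 1 for gpa-8, gpa-10, gpa-12, gpa-17 and rgs-10. They were 0.377 to 1.55 for gpa-8, 0.541 to 1.08 for gpa-10, 0.686 to 2.36 for gpa-17 and 0.0612 to 1.22 for rgs-10. A difference was therefore not detectable for these genes at this depth. The intervals of gpa-13 (0.501 to 0.934) and rgs-11 (0.0689 to 0.586) lie below 1, but they cover counting error only, and most reads of both genes came from RNA sample 1.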
